A study of Mus musculus with 4 samples.

Results

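Activated scar fibroblasts were followed by their extracellular matrix genes in single nuclei of mouse ventricles taken after voluntary running, myocardial infarction, both or neither. A nucleus was kept as a fibroblast when it had at least 5 unique molecular identifiers (UMIs, each a counted RNA molecule) of Pdgfra, Dcn, Col1a2 and Col3a1 together, at most 2 of Flt1, Ptprb and Pecam1, at most 1 of Myh11 and Rgs5, and under 1% of its UMIs from Ttn and Ryr2. It was called activated when Postn, Col12a1, Col11a1, Cthrc1, Comp and Ltbp2 together gave at least 5 UMIs over at least 2 of these 6 genes. Nuclei entered with 300 or more genes and no more than 20% mitochondrial UMIs. Of the 19584 such nuclei, 4907 passed the fibroblast gate and 605 of these were activated. The activated nuclei numbered 277 in the running infarct library, 262 in the sedentary infarct library, 42 in the running library and 24 in the sedentary library. The rule used measured UMIs of the 6 genes, so the levels of these genes in the chosen nuclei are descriptions and not findings.

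The mice were wild type C57BL/6J of both sexes, 8 weeks old at the start. The running infarct group ran on a wheel at will for 16 weeks, was operated on for an infarct and was sampled 2 weeks later. The sedentary infarct group had the same surgery and interval with no wheel running. The running group ran for 16 weeks and had no surgery, and the sedentary group had neither. Each group was 1 library of sorted nuclei from frozen ventricles, pooled from 4 hearts in each infarct group and 2 in each group without infarct. No comparison between groups therefore has a replicate check, no p-value is given, and a difference between libraries cannot be told apart from a difference between pools of hearts. Intervals are 95% intervals that cover counting error only.

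Resident cardiac fibroblasts are spread through the healthy ventricle, where they maintain a sparse matrix. After an infarct, those around the dead muscle proliferate, take on a contractile state and lay down the collagen scar, and later settle into a matrix-maintaining state with tendon-like and cartilage-like genes. Periostin, encoded by Postn, is a secreted matricellular protein widely used to mark this response in the mouse heart. Col12a1 encodes a collagen that lies on the surface of fibrils, Col11a1 a minor fibrillar collagen that helps set fibril diameter, Comp a cartilage oligomeric matrix protein that binds fibrillar collagen, Cthrc1 a secreted collagen triple helix repeat protein induced in injured vessels and scars, and Ltbp2 a latent transforming growth factor beta (TGF-beta) binding protein of elastic microfibrils.

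The promoter of Postn is shown because this gene contributed most of the marker UMIs. RefSeq (GRCm38.p6) lists a pair of starts on the plus strand of chromosome 3, and the 250 bases before each are printed, with matches to the motifs searched in capitals.
Postn start 1, chr3:54359017-54359266: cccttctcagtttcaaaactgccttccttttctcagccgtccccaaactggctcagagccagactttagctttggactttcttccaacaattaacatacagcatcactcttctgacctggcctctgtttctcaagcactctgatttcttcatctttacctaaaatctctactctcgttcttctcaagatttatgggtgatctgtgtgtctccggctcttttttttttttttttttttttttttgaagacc
Postn start 2, chr3:54360857-54361106: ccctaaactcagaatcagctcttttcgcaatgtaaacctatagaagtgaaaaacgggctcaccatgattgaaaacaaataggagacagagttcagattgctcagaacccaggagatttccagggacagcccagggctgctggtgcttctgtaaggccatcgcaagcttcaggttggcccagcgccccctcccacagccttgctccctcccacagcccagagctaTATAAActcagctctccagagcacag
The motifs were TGANTCA for AP-1, GGAATG for TEAD, CAGACA for Smad and TATAAA for the TATA box, on both strands, in the window from 250 bases before to 50 after the start. The match in capitals is TATAAA, 26 bases before the downstream start, and the upstream sequence holds none. The AP-1 motif was present in 7.81% of all 32851 promoters in the table, the TEAD motif in 14.7%, the Smad motif in 21.0% and the TATA box in 13.6%. The table held 3 of the 6 marker genes, Postn, Col11a1 and Ltbp2, and Col11a1 and Ltbp2 held none of these letters in the window. A match or its absence is a description of the letters in this window.

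The deposited matrices held between 3243 and 6253 barcodes and between 26170995 and 37533722 UMIs per library. Activated nuclei were deeper than the other gated fibroblasts of the same library, with a median of 5454 against 3590 UMIs in running infarct, 5842.5 against 4114 in sedentary infarct, 5844 against 4118 in running and 4459.5 against 3684.5 in sedentary. Library pairs shared 2 to 12 barcode sequences, and no activated nucleus shared its barcode with an activated nucleus of another library. Nuclei in which 4 Y-linked genes together gave 2 or more UMIs made up 27.1% of activated nuclei in running infarct, 20.6% in sedentary infarct, 33.3% in running and 37.5% in sedentary, so the mix of male and female nuclei differed between libraries.

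Nuclei that met the rule were a large part of the gated fibroblasts in both infarct libraries and rare in both libraries without infarct. The few without infarct differed from the others in many genes outside the rule, as given below, so they need not be the same state. Such nuclei made up 27.6% (24.9 to 30.5%) of gated fibroblasts in running infarct and 26.6% (23.9 to 29.5%) in sedentary infarct. In running they made up 2.71% (1.96 to 3.65%) and in sedentary 1.75% (1.12 to 2.59%). The share was thus 10.2 times as high in running infarct as in running (7.43 to 13.9) and 15.2 times as high in sedentary infarct as in sedentary (10.1 to 22.9). Between the infarct libraries the ratio of shares, running infarct over sedentary infarct, was 1.04 (0.899 to 1.20), an interval that contains equality. Running over sedentary gave 1.55 (0.945 to 2.55), which also contains equality. These ratios moved with the settings of the rule: running infarct over running was 4.16 with at most 5% mitochondrial UMIs and 23.2 with 3 marker genes required, sedentary infarct over sedentary reached 47.6 with 3 marker genes, and running over sedentary was 0.939 with 10 marker UMIs. Of the intervals between the infarct libraries, 2 came to exclude equality, at 1.21 (1.01 to 1.45) with 3 marker genes and 1.43 (1.11 to 1.85) without nuclei carrying macrophage or lymphocyte markers. For running over sedentary 3 did so, at 1.91 (1.27 to 2.89) with 3 marker UMIs, 3.87 (1.80 to 8.34) with at most 5% mitochondrial UMIs and 2.09 (1.00 to 4.35) in nuclei with no Y-linked UMI.

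The order of the infarct libraries turned with the denominator. Among all filtered nuclei, activated fibroblasts were 5.65% (5.02 to 6.33%) in running infarct and 8.17% (7.25 to 9.17%) in sedentary infarct, a ratio of 0.691 (0.587 to 0.814). The gated fibroblasts as a whole were 20.5% of filtered nuclei in running infarct and 30.7% in sedentary infarct. They were 25.2% in running and 25.7% in sedentary. Nuclei were sorted on a DNA stain before loading, so these shares describe the sorted suspension, and fewer cells of a type cannot be told apart from fewer of its nuclei recovered. Endothelial nuclei, a type that should lack the markers, had at least 5 UMIs of Flt1, Ptprb and Pecam1 together. They also had at most 2 of Pdgfra, Dcn, Col1a2 and Col3a1 together, and under 1% from Ttn and Ryr2. That limit on fibroblast genes left out endothelial nuclei with more fibroblast RNA, so a low rate was partly set by it. The same marker rule was met by 5 of 542 endothelial nuclei (0.923%) in running infarct and 2 of 306 (0.654%) in sedentary infarct. In running it was met by 5 of 967 (0.517%) and in sedentary by 1 of 826 (0.121%). The endothelial nuclei were shallower, with a median of 2692.5 UMIs in running infarct, 3003 in sedentary infarct, 3309 in running and 2930.5 in sedentary.

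Depth changed the level of the shares but not which libraries were high. With every nucleus thinned to 2000 UMIs, which left out 191 shallower gated fibroblasts in running infarct, 72 in sedentary infarct, 82 in running and 84 in sedentary, 149 of 812 gated fibroblasts (18.3%) met the rule in running infarct and 138 of 913 (15.1%) in sedentary infarct. In running it was 17 of 1465 (1.16%) and in sedentary 10 of 1288 (0.776%). The thinned endothelial count was 0 of 385 nuclei in running infarct, 0 of 248 in sedentary infarct, 2 of 843 in running and 0 of 704 in sedentary.

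**Figure D1:**
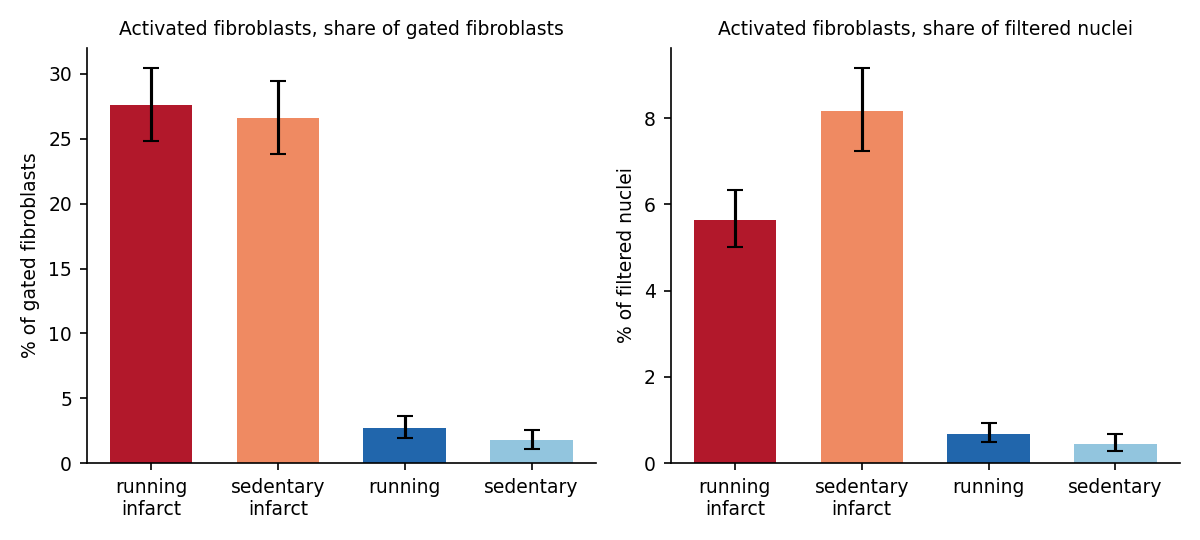
Share of activated fibroblasts (percent, y axis) in the running infarct, sedentary infarct, running and sedentary libraries, among gated fibroblasts and among all filtered nuclei; bars are shares, error bars exact 95% binomial intervals for counting error only. Both infarct libraries stand near 27% of gated fibroblasts, against under 3% in the libraries without infarct, and the infarct libraries change order when all filtered nuclei are the denominator.

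The activated nuclei ranged from barely over the threshold to strongly positive. The 6 genes gave a median of 15 UMIs per activated nucleus in running infarct and 15 in sedentary infarct, with maxima of 113 in running infarct and 146 in sedentary infarct. In running the median was 8 with a maximum of 95, and in sedentary 11.5 with a maximum of 49. Just inside the rule, 30 nuclei in running infarct, 18 in sedentary infarct, 4 in running and 2 in sedentary had exactly 5 marker UMIs. Just outside it, exactly 4 UMIs over at least 2 genes were found in 33 nuclei in running infarct, 19 in sedentary infarct, 12 in running and 5 in sedentary. Another 30 nuclei in running infarct, 43 in sedentary infarct, 13 in running and 11 in sedentary had at least 5 UMIs of a lone marker gene.

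More of the markers were detected together in activated nuclei of the infarct libraries, which is a description, as the rule set the minimum of 2 genes. These nuclei also had more marker UMIs each, with medians of 15 in both infarct libraries, 8 in running and 11.5 in sedentary. The counts were not matched for marker UMIs. Only the minimum of 2 genes was detected in 23.8% of activated nuclei in running infarct and 34.7% in sedentary infarct, against 66.7% in running and 79.2% in sedentary. All 6 genes were detected together in 11 nuclei of each infarct library and in 0 nuclei of running and of sedentary. Postn was the common partner. In running infarct 162 of 179 Comp-positive nuclei and 70 of 81 Col11a1-positive nuclei also had a Postn UMI. In sedentary infarct these counts were 123 of 132 for Comp and 59 of 64 for Col11a1. Col11a1 and Cthrc1 were each found in fewer than 1 in 3 activated nuclei, and 31 nuclei in running infarct and 30 in sedentary infarct had both.

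Nuclei outside the gate met the marker rule as well. Of nuclei outside the fibroblast gate, 437 (11.2%) in running infarct, 312 (14.0%) in sedentary infarct, 54 (1.18%) in running and 63 (1.59%) in sedentary met the marker rule. Most exceeded the endothelial limit, 374 nuclei in running infarct, 279 in sedentary infarct, 52 in running and 57 in sedentary. The endothelial limit alone kept out 230 nuclei in running infarct, 171 in sedentary infarct, 18 in running and 30 in sedentary. The activated nuclei numbered 277 in running infarct, 262 in sedentary infarct, 42 in running and 24 in sedentary. The shares given above thus depend on this limit, and shares under another endothelial limit were not tested. The limit on Myh11, a smooth muscle myosin, and Rgs5, a pericyte marker, was exceeded by 133 of them in running infarct, 89 in sedentary infarct, 23 in running and 24 in sedentary. That limit alone kept out 12 nuclei in running infarct, 9 in sedentary infarct, 0 in running and 1 in sedentary, and the others failed another limit as well.

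Postn was the most counted marker. Activated nuclei had 1696 CPM (UMIs of a gene per 1000000 non-mitochondrial UMIs, both summed over the activated nuclei of a library) in running infarct (1632 to 1761), 2412 in sedentary infarct (2337 to 2489), 1691 in running (1526 to 1869) and 1980 in sedentary (1730 to 2257). The levels in the few activated nuclei without infarct were not below that of running infarct by these intervals. As every chosen nucleus had to carry at least 5 marker UMIs, they are partly set by the rule. Postn was detected in 92.8% of activated nuclei in running infarct, 96.6% in sedentary infarct, 88.1% in running and 91.7% in sedentary. Gated fibroblasts outside the rule had 234 CPM in running infarct, 283 in sedentary infarct, 58.8 in running and 65.8 in sedentary, so Postn was also higher in the infarct libraries among fibroblasts that were not called activated. Endothelial nuclei, which should lack Postn, had the same order at 138 CPM in running infarct, 111 in sedentary infarct, 46.3 in running and 19.3 in sedentary. The part of such background in the values of other gated fibroblasts was not tested.

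Col12a1 and the other 4 markers followed different orders. Col12a1 was at 254 CPM (230 to 280) in running infarct, 348 (319 to 378) in sedentary infarct, 194 (141 to 261) in running and 256 (172 to 368) in sedentary. The interval of sedentary overlaps that of running infarct, and sedentary infarct is the highest. Col11a1 was at 282 CPM (257 to 309) in running infarct and 121 (104 to 139) in sedentary infarct, against 75.1 (43.7 to 120) in running and 17.7 (2.14 to 63.9) in sedentary. Its UMIs were concentrated, with 50.4% in 10 nuclei in running infarct and 44.6% in 10 nuclei in sedentary infarct.

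Cthrc1 was at 106 CPM in activated nuclei of running infarct (90.4 to 123) and 106 in those of sedentary infarct (90.7 to 123), with a UMI in 79 nuclei of running infarct and 77 of sedentary infarct. In running it was at 30.9 CPM (12.4 to 63.7) from 4 nuclei, and in sedentary 0 of 24 nuclei had a UMI, which allows up to 32.6 CPM. Nuclei outside the gate held more Cthrc1 UMIs in all, at a lower level: 506 UMIs against 168 in activated nuclei of running infarct (20.7 CPM outside the gate), and 324 against 171 in sedentary infarct (16.1 CPM outside the gate). Comp was at 421 CPM (389 to 454) in running infarct, 327 (299 to 356) in sedentary infarct, 305 (237 to 386) in running and 221 (143 to 326) in sedentary. Ltbp2 was at 610 CPM (572 to 650) in running infarct, 459 (426 to 493) in sedentary infarct, 468 (383 to 566) in running and 566 (436 to 723) in sedentary. The interval of running infarct lies above those of all other libraries for Comp, and above those of sedentary infarct and running for Ltbp2. Counts come from tags at transcript ends, and levels are compared between libraries, not between genes.

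**Figure D2:**
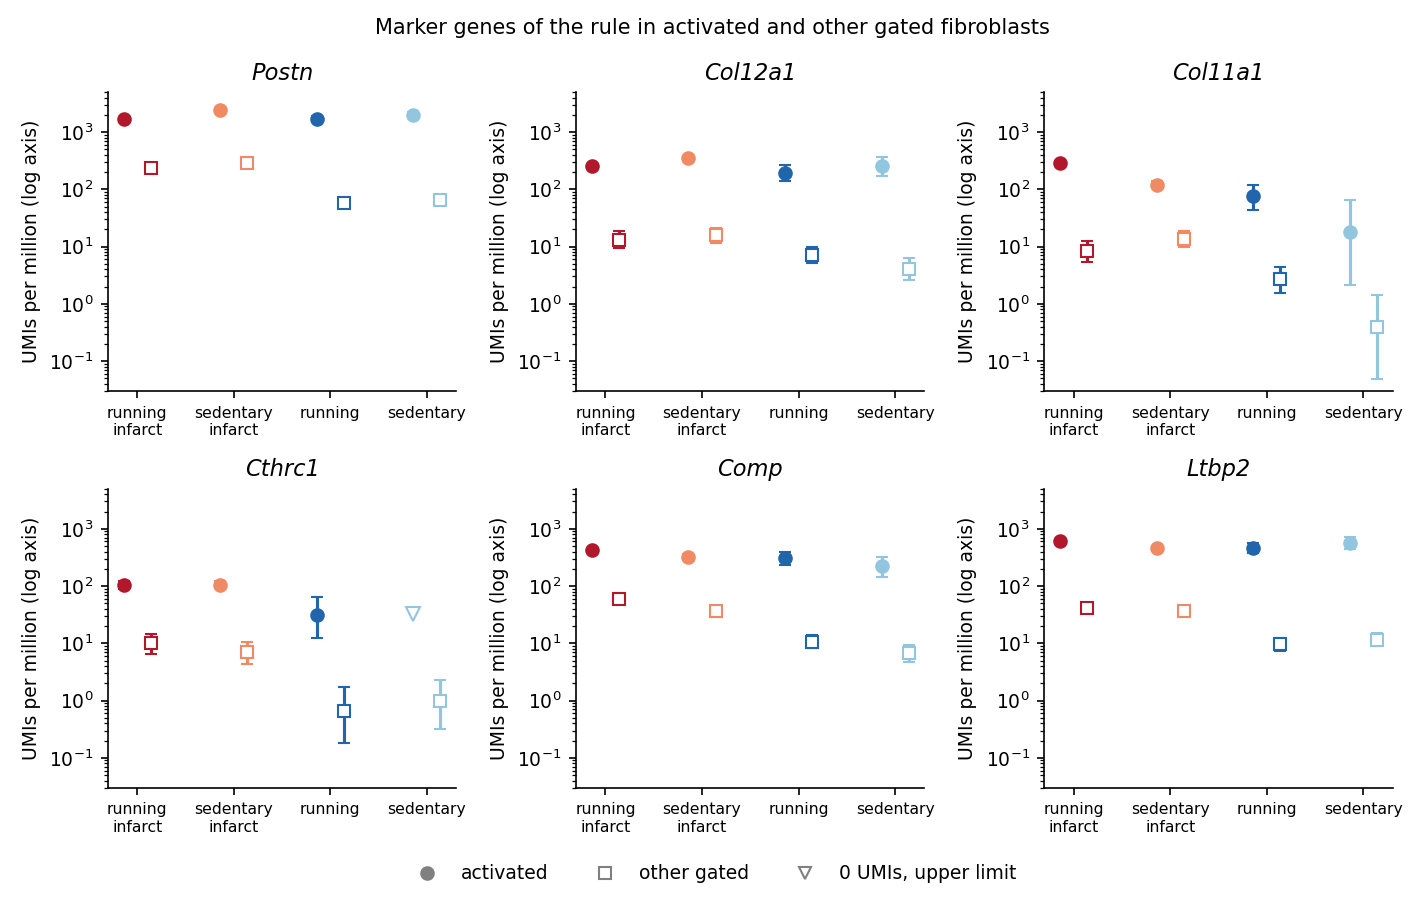
Level of the 6 marker genes (CPM, log axis) in activated nuclei and in the other gated fibroblasts of the running infarct, sedentary infarct, running and sedentary libraries, with exact 95% Poisson intervals; an open triangle marks the upper limit for 0 UMIs. Postn, Comp and Ltbp2 in activated nuclei differ by less than 2-fold between libraries, whereas Col11a1 and Cthrc1 lie lower in the libraries without infarct.

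Each marker was also read in gated fibroblasts chosen by the other 5 genes alone, so that its own UMIs did not select the nuclei. Postn was 2.83 times as high in nuclei chosen this way as in those not chosen in running infarct (2.64 to 3.03) and 3.99 times in sedentary infarct (3.77 to 4.22). In running the ratio was 14.5 (11.8 to 17.6) and in sedentary 8.89 (5.59 to 13.5). Col12a1 was 7.67 times as high in running infarct (6.06 to 9.80) and 10.2 times in sedentary infarct (8.28 to 12.8). Within a library, then, nuclei rich in the other markers were rich in each of these as well.

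The same held for the rarer markers in the infarct libraries. Col11a1 was 16.2 times as high in chosen nuclei in running infarct (12 to 22.4) and 7.13 times in sedentary infarct (5.21 to 9.92). Cthrc1 was 8.55 times as high in running infarct (5.85 to 12.8) and 9.37 times in sedentary infarct (6.41 to 14.1). Comp and Ltbp2 gave ratios of 3.91 and 4.69 in running infarct and of 3.77 and 5.61 in sedentary infarct. In sedentary, where 23 nuclei were chosen without Col11a1 and 24 without Cthrc1, neither gene had a UMI in them.

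The nuclei carried general fibroblast genes outside the rule. Lama2, a basement membrane laminin chain of fibroblasts, was detected in 246 of 277 activated nuclei in running infarct, 250 of 262 in sedentary infarct, 41 of 42 in running and 24 of 24 in sedentary. Tcf21, a transcription factor of epicardium-derived fibroblasts, was at 46.6 CPM in running infarct, 38.4 in sedentary infarct, 57.4 in running and 53.1 in sedentary. Fap, a surface protease often used to mark activated fibroblasts and chosen here after its values were seen, did not follow the 6 markers: it was at 184 CPM in activated nuclei and 152 CPM in other gated fibroblasts of running infarct, and at 234 against 274 CPM in sedentary infarct. In the libraries without infarct it was lower in activated nuclei, at 66.2 against 379 CPM in running and 79.6 against 394 CPM in sedentary.

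Markers of other cell types were present too. The 12 macrophage genes summed to 817 CPM in activated nuclei of running infarct, 777 in sedentary infarct, 662 in running and 433 in sedentary. In other gated fibroblasts they summed to 1489 CPM in running infarct, 936 in sedentary infarct, 828 in running and 814 in sedentary. In activated nuclei of the infarct libraries most of that sum was Rbpj and Mertk, which fibroblasts also express. Rbpj and Mertk were at 348 and 113 CPM in running infarct and at 309 and 146 CPM in sedentary infarct. In other gated fibroblasts of running infarct Rbpj was at 568 CPM, beside F13a1 at 174, Mrc1 at 167 and Ptprc at 165 CPM. The macrophage gene Csf1r was in activated nuclei at 22.0 CPM in running infarct, 22.9 in sedentary infarct, 8.83 in running and 17.7 in sedentary. The 9 cardiomyocyte genes summed to between 1691 and 1963 CPM in activated nuclei of the 4 libraries, the 10 endothelial genes to between 242 and 296 CPM, and the 7 adipocyte genes to between 0 and 13.2 CPM. Against other gated fibroblasts of running infarct, 8 of 9 macrophage, 7 of 8 endothelial and 2 of 9 cardiomyocyte genes were at least 1.5-fold lower. In sedentary infarct these counts were 3 of 8, 3 of 7 and 3 of 9, and in neither library was any higher. Over all genes 10.8% were lower in running infarct and 10% in sedentary infarct. The part of such RNA in the results below was not tested, except where a value without the nuclei that carry it is given.

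Activated nuclei of the infarct libraries carried a broader scar matrix and contractile set than the other gated fibroblasts beside them. Because the rule chose the nuclei by markers from this same contrast, these values are a description. Of 7521 genes with at least 100 UMIs over both sums in running infarct, 489 (6.5%) were at least 1.5-fold higher and 814 (10.8%) at least 1.5-fold lower in activated nuclei. In sedentary infarct 434 of 7828 genes (5.54%) were higher and 783 (10%) lower by the same measure. The highest ratios outside the 6 markers included matrix and channel genes.

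Kcnma1, the pore subunit of the large-conductance calcium-activated potassium channel, had 698 CPM in activated nuclei against 74.4 CPM in other gated fibroblasts of running infarct, a ratio of 9.38 (8.06 to 10.9), and a ratio of 10.6 in sedentary infarct. Tnc, tenascin C of provisional matrix, was 8.37-fold higher in running infarct and 5.88-fold in sedentary infarct. Both genes were thus high in activated nuclei of both infarct libraries. Ddah1, which degrades an inhibitor of nitric oxide synthases, was 6.66-fold higher in running infarct and 11.8-fold in sedentary infarct. Thbs1 and Thbs4, thrombospondins of the matrix, were 4.62-fold and 5.45-fold higher in running infarct and 7.42-fold and 9.19-fold in sedentary infarct. Col24a1, a minor fibrillar collagen, was 5.33-fold higher in running infarct and 8.33-fold in sedentary infarct. Further genes at the top were Ifitm10, Kif26b, Rflnb, Gpr176, P3h2, Eya4 and Klhl29, with ratios between 3.35 and 5.54 in running infarct and between 3.70 and 10.6 in sedentary infarct.

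Several matrix groups had many members higher. Of matricellular and adhesive glycoproteins, in running infarct 12 of 19 measured were higher and 1 lower, and in sedentary infarct 9 were higher and 2 lower of 19. Fn1, fibronectin, was 3.06-fold higher in running infarct and 4.67-fold in sedentary infarct, while Tnxb, tenascin X of loose connective tissue, was lower with a ratio of 0.441 in running infarct and 0.409 in sedentary infarct. Fibrillar collagens were higher for 5 of 8 genes in running infarct and for 5 of 8 in sedentary infarct, where 1 was lower. Col5a2 stood at 1395 CPM in activated nuclei against 709 CPM in other gated fibroblasts of running infarct, a ratio of 1.97, and Col1a1 at a ratio of 1.82. In sedentary infarct the ratios were 2.33 for Col5a2 and 1.70 for Col1a1.

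Contractile genes moved together in part. In running infarct 5 of 10 measured were higher and none lower, and in sedentary infarct 4 of 10 were higher and none lower. Palld, palladin of stress fibres, was 2.26-fold higher in running infarct and 4.51-fold in sedentary infarct. Actn1, an alpha-actinin, was 2.82-fold higher in running infarct and 4.00-fold in sedentary infarct. Acta2, the smooth muscle actin of myofibroblasts, stayed scarce: it had 25 UMIs in running infarct, 35 in sedentary infarct, 6 in running and 0 in sedentary. Of the fibroblast activation genes, 8 of 21 were higher and 2 lower in running infarct, and 9 of 22 higher and 1 lower in sedentary infarct. Among them, Nox4, a hydrogen peroxide producing oxidase downstream of TGF-beta, was 2.52-fold higher in running infarct and 3.37-fold in sedentary infarct. Cdh11, a mesenchymal cadherin on the same list, was lower with a ratio of 0.462 in running infarct and 0.626 in sedentary infarct.

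Later-stage scar genes were present as well. Of matrifibrocyte and cartilage-like genes, 5 of 8 measured were higher and 1 lower in running infarct, and 4 of 8 higher and none lower in sedentary infarct. One of the higher members is Comp, a marker whose UMIs chose the nuclei; without it, 4 of 7 were higher and 1 lower in running infarct and 3 of 7 higher and none lower in sedentary infarct. Cilp, the cartilage intermediate layer protein, was 2.79-fold higher in running infarct and 3.40-fold in sedentary infarct, and Ptn, the growth factor pleiotrophin, 2.92-fold in running infarct and 3.04-fold in sedentary infarct. Wnt modulators had 4 higher and 2 lower of 8 in running infarct and 4 higher and 3 lower of 10 in sedentary infarct, but 4 higher and none lower of 6 in running infarct and 3 higher and none lower of 6 in sedentary infarct once nuclei with at least 2 mesothelial UMIs were left out, a comparison added after the data were seen. Frzb, a secreted Wnt inhibitor, was 4.02-fold higher in running infarct and 2.39-fold in sedentary infarct. Of the Hippo pathway targets, Ccn2 was 2.59-fold higher and Ccn1 2.70-fold higher in running infarct, and in sedentary infarct they were 2.60-fold and 2.63-fold higher.

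Resting fibroblast and complement genes were the counterpart. Of resting fibroblast genes, 9 of 20 were lower and 1 higher in running infarct, and 14 of 20 lower and 1 higher in sedentary infarct; the higher one is Nox4, which stands on that list too. Gsn, the actin-severing protein gelsolin, was at 531 CPM in activated nuclei against 703 CPM in other gated fibroblasts of running infarct, and at 535 against 1226 CPM in sedentary infarct. Complement genes were lower for 6 of 8 in running infarct and for 5 of 8 in sedentary infarct, with none higher. C3, the central complement protein, had a ratio of 0.273 in running infarct and 0.286 in sedentary infarct. Adventitial fibroblast genes went both ways, with 2 higher and 5 lower of 14 in running infarct and 2 higher and 7 lower of 12 in sedentary infarct. Sema3c, a guidance ligand on that list, had a ratio of 0.375 in running infarct and 0.400 in sedentary infarct. Fbn1, fibrillin of microfibrils, was 1.76-fold higher in running infarct and 1.90-fold in sedentary infarct, and Mfap5, a microfibril-associated protein, 1.66-fold in running infarct and 1.58-fold in sedentary infarct. Without nuclei carrying mesothelial UMIs, the adventitial genes had none higher and 4 lower of 14 in running infarct and 1 higher and 8 lower of 12 in sedentary infarct.

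**Figure D3:**
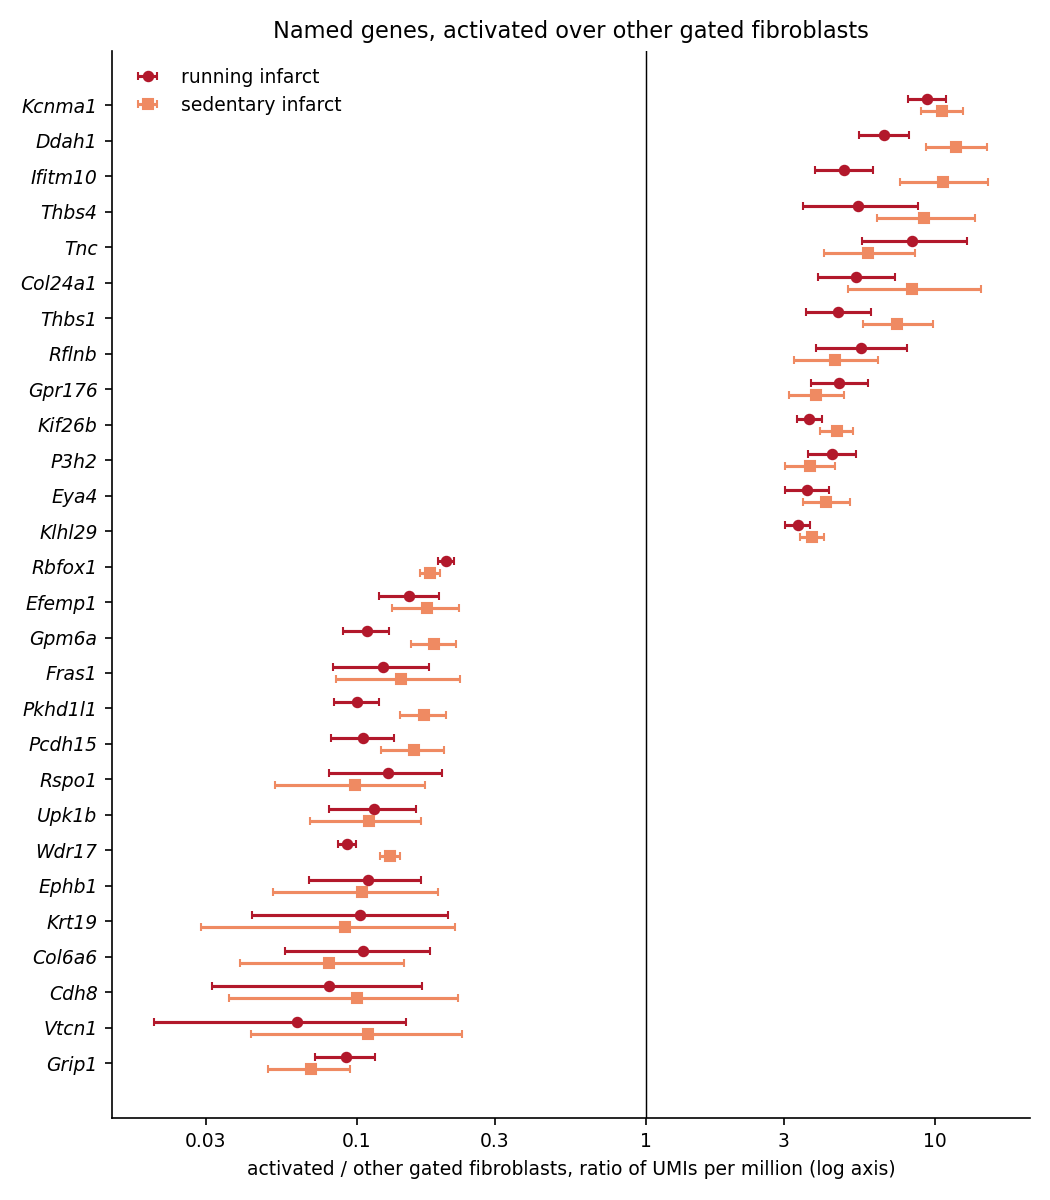
Ratio of the level in activated nuclei to that in other gated fibroblasts (log axis) for the named genes, with the running infarct and sedentary infarct libraries side by side and exact 95% intervals for counting error. Kcnma1 and Ddah1 lie near the top in both libraries, and the genes at the low end include the mesothelial genes Upk1b, Krt19 and Gpm6a.

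Mesothelial genes were among the lowest ratios. The 15 lower genes named by rule included Upk1b, Krt19 and Gpm6a of the mesothelial marker list, and all 9 measured mesothelial markers were lower in activated nuclei of both infarct libraries. The 10 mesothelial genes summed to 237 CPM in activated nuclei of running infarct and 268 CPM in those of sedentary infarct, against 2169 CPM in other gated fibroblasts of running infarct and 1435 CPM in those of sedentary infarct. Nuclei with at least 2 mesothelial UMIs were 15 of the activated (5.42%) and 187 of the others (25.8%) in running infarct, and 14 (5.34%) and 132 (18.3%) in sedentary infarct. Without them, a comparison added after the data were seen, 10 of the 15 lower genes dropped under 100 UMIs in both libraries. Wdr17 then had a ratio of 0.526 in running infarct, against 0.0925 with all nuclei, and 0.821 in sedentary infarct, against 0.130 with all nuclei. Rbfox1 had 1.13 in running infarct, against 0.203 with all nuclei, and 0.80 in sedentary infarct, against 0.179. These genes were thus close to even once such nuclei were left out in sedentary infarct. Col6a6, a collagen VI chain, still had a ratio of 0.0853 in running infarct and 0.0755 in sedentary infarct, and Efemp1, a fibulin of the matrix, 0.383 in running infarct and 0.246 in sedentary infarct. Kcnma1 remained 8.37-fold higher in running infarct and 9.22-fold in sedentary infarct. Resting fibroblast genes were then lower for 14 of 19 in running infarct and for 15 of 20 in sedentary infarct. Contractile genes then had 4 higher and none lower of 10 in running infarct, and 4 higher and 1 lower of 9 in sedentary infarct. Complement genes were then lower for 4 of 6 in running infarct and for 4 of 8 in sedentary infarct, with none higher.

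Between the infarct libraries, activated nuclei of running infarct and sedentary infarct were within 1.5-fold of each other for most genes, and those that differed included clock genes and a few matrix genes. Of 6201 genes with at least 100 UMIs over both sums, 151 (2.44%) were at least 1.5-fold higher and 141 (2.27%) at least 1.5-fold lower in running infarct. The median log2 ratio over all of them was -0.0094. Other gated fibroblasts of the same libraries had 438 of 8660 genes higher (5.06%) and 270 lower (3.12%). As both infarct groups are 1 pool of 4 hearts each, the effect of running cannot be told apart from that of the pool.

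Clock genes were prominent among them. Of the 13 measured core clock and output genes, 2 were higher and 7 lower in running infarct, and their median log2 ratio was -0.62. Arntl, which encodes the clock activator BMAL1, had 174 CPM in running infarct and 65.1 CPM in sedentary infarct, a ratio of 2.67 (2.13 to 3.38). Npas2, a partner of BMAL1, had 86.3 CPM in running infarct and 28.5 CPM in sedentary infarct, a ratio of 3.03 (2.15 to 4.32). The activator arm was thus the higher part. Nr1d1, the REV-ERB repressor of Arntl, had 35.3 CPM in running infarct against 98.5 CPM in sedentary infarct, a ratio of 0.358 (0.259 to 0.488). Dbp and Hlf, output factors driven by the clock, had ratios of 0.361 (0.259 to 0.498) and 0.468 (0.366 to 0.596). Nr1d2, the second REV-ERB gene, had a ratio of 0.574, and Per3, a period gene of the repressor arm, 0.632. These repressor and output genes were thus lower, and so were Per2 at 0.644 and Bhlhe41 at 0.651. The repressor gene Cry2, at 0.879 (0.656 to 1.18), Per1 at 0.698 and the output gene Tef at 0.739 did not pass 1.5-fold, and Clock itself, the other partner of BMAL1, stood at a ratio of 1.02 (0.860 to 1.21).

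The same clock genes differed in fibroblasts that were not activated. In other gated fibroblasts of the same libraries the ratio was 2.43 for Arntl, 2.89 for Npas2, 0.348 for Nr1d1, 0.472 for Dbp, 0.574 for Hlf and 0.580 for Nr1d2. The direction also held in nuclei with 2 or more Y-linked UMIs (Y-positive) and in nuclei with none (Y-negative). Nuclei with a lone Y-linked UMI were in neither split, here and below. The log2 ratio for Arntl was 2.59 in the Y-positive and 1.22 in the Y-negative nuclei, and for Nr1d1 -1.76 and -1.22. The hour at which hearts were collected is not given in the sources used here.

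Arntl is shown with its sequence because a REV-ERB element lies near a start. In RefSeq (GRCm38.p6) the ROR/REV-ERB response element, searched on both strands and added after the clock genes were seen, occurs in 0.219% of the 32851 promoters. The 30 bases at chr7:113207528-113207557 on the plus strand hold the match in capitals, 27 bases after the start.
Arntl start 2: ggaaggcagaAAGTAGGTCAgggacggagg
The match is a description of these letters and not of a bound site.

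Col11a1 had the highest ratio of the matrix genes named between the infarct libraries. As it is a marker of the rule, its level was also taken in gated nuclei chosen by the other 5 markers, a comparison added after the data were seen. There it was at 276 CPM in running infarct against 118 CPM in sedentary infarct, a ratio of 2.33 (1.96 to 2.79). In gated nuclei not chosen by those 5 it was at 17.0 CPM in running infarct and 16.6 CPM in sedentary infarct. The values that follow are a description of activated nuclei chosen by all 6. The share of activated nuclei with a Col11a1 UMI was 29.2% in running infarct and 24.4% in sedentary infarct, and the most Col11a1 UMIs in a lone nucleus were 42 in running infarct and 17 in sedentary infarct. The log2 ratio was 0.51 in nuclei with Y-linked UMIs and 1.65 in nuclei with none, and 1.22 over all nuclei. Col24a1 had 114 CPM in running infarct against 52.1 CPM in sedentary infarct, a ratio of 2.19, but its log2 ratio was 1.07 in nuclei with Y-linked UMIs and -0.04 in those with none, so the splits did not share a direction. Fbn2, fibrillin of developing elastic fibres, had 123 CPM in running infarct and 60.7 CPM in sedentary infarct, a ratio of 2.03 (1.59 to 2.62).

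The other markers were compared in nuclei chosen without their own UMIs in the same way. The ratio of running infarct over sedentary infarct was 0.599 (0.562 to 0.639) for Postn, 0.706 (0.615 to 0.811) for Col12a1, 1.03 (0.819 to 1.28) for Cthrc1, 1.41 (1.24 to 1.61) for Comp and 1.26 (1.13 to 1.41) for Ltbp2. Postn and Col12a1 were on the lower side and Comp and Ltbp2 on the higher side, each with an interval that excludes equality for counting error, and of these 4 only Postn was past 1.5-fold. In activated nuclei chosen by all 6 markers the ratio of Postn was 0.703. There the direction of Col12a1 turned, to a log2 ratio of 0.33, without nuclei carrying macrophage or lymphocyte markers.

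Kank4, of the talin-binding Kank family, had 66.1 CPM in running infarct against 18.6 CPM in sedentary infarct, a ratio of 3.56 (2.35 to 5.53), with 67.6% of its UMIs in running infarct from 10 nuclei. Wwp2, an E3 ubiquitin ligase, had 404 CPM in running infarct against 205 CPM in sedentary infarct, a ratio of 1.97 (1.72 to 2.26), and a ratio of 1.24 in other gated fibroblasts. Kcnab1 and Kcnq5, potassium channel subunits, had ratios of 2.33 and 1.96, and Nkain2 of 2.06. For Kcnq5 and Nkain2 most UMIs came from few nuclei, 79.5% and 65.6% from 10 nuclei of running infarct. Lbh and Lmcd1, transcription cofactors, had ratios of 1.77 and 1.98, and Abtb2 of 1.72.

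Podn, podocan, a small leucine-rich proteoglycan, had 43.4 CPM in running infarct against 94.2 CPM in sedentary infarct, a ratio of 0.461, and 0.598 in other gated fibroblasts. Slc20a1, a phosphate transporter, had 90.04 CPM in running infarct against 169 CPM in sedentary infarct, a ratio of 0.534, and 1.16 in other gated fibroblasts. Abca8b, a membrane transporter on the resting fibroblast list, had 261 CPM in running infarct against 441 CPM in sedentary infarct, a ratio of 0.592. Fat3, an atypical cadherin, had a ratio of 0.361, Gas2 of 0.457, Mnt, a repressor of the Myc network, of 0.452, Hhipl1 of 0.494 and Ntm of 0.500. For Fat3, 87.5% of its UMIs in running infarct came from 10 nuclei.

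**Figure D4:**
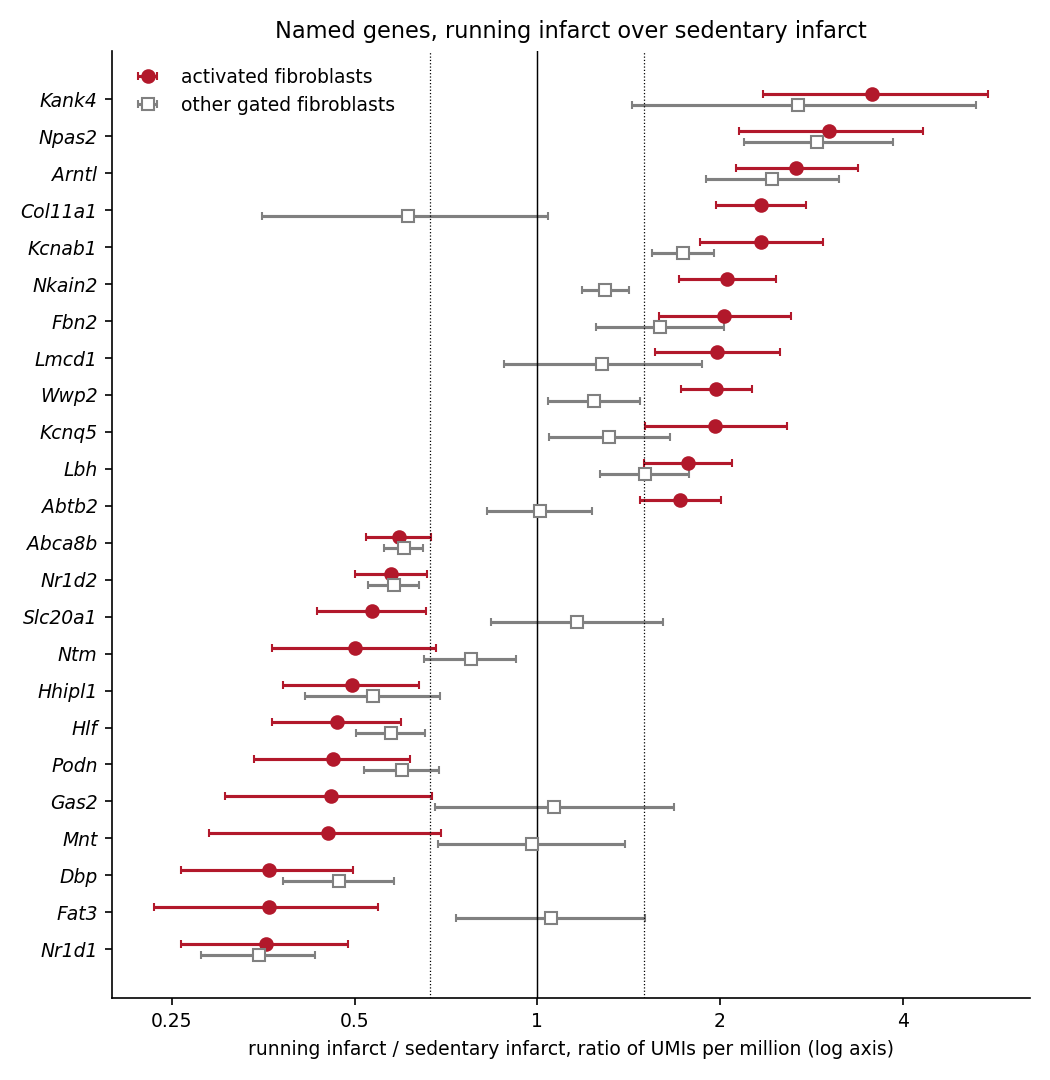
Ratio of running infarct to sedentary infarct (log axis) for the 24 genes named by rule, in activated nuclei and in other gated fibroblasts, with exact 95% intervals for counting error and dotted lines at 1.5-fold. Arntl, Npas2, Nr1d1 and Dbp lie off the line of equality in both populations, whereas the intervals of Fat3 and Slc20a1 exclude equality in activated nuclei but not in other gated fibroblasts.

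Several matrix and contractile groups had few or no members past 1.5-fold between the infarct libraries, whereas interferon-induced and immediate early genes had more. Contractile genes had 0 of 11 measured past 1.5-fold in either direction, with Palld at 0.861 and Cald1 at 1.17. Integrins and focal adhesion genes had 0 of 17, complement genes 0 of 6, heat shock genes 0 of 11 and adventitial fibroblast genes 0 of 10. Fibrillar collagens had 1 of 8 higher, Col24a1, whose direction the Y splits did not share. That list leaves out the fibrillar collagen Col11a1, a marker of the rule with a ratio of 2.33. Fibroblast activation genes had 1 of 21 higher, Kif26b, an atypical kinesin of cell migration. It was at 778 CPM in running infarct against 490 CPM in sedentary infarct (ratio 1.59). Matricellular genes had Vcan, the proteoglycan versican, at 1.51 and Ccn1 at 1.51 higher and Thbs4 at 0.543 lower, of 19. The other collagens had 2 of 15 lower, Col4a6 and Col22a1, and none higher.

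Among signalling groups, TGF-beta and BMP genes had 1 of 19 lower, the ligand Bmp4 with a ratio of 0.611, and none higher. Growth factor genes had Pdgfc, a platelet-derived growth factor, higher at 2.36 and Angptl2 lower at 0.562, of 22. Guidance genes had Unc5c at 1.52 and Sema5a at 0.584, of 18. Interferon-induced genes had 3 of 12 higher and none lower, Iigp1 at 2.16, Ifi204 at 1.86 and Parp14 at 1.62. Immediate early genes had 3 of 7 higher and none lower, Klf2 at 2.15, Klf4 at 1.64 and Fosl2 at 1.56. Over all genes 2.44% were higher. In other gated fibroblasts 3 of 19 interferon-induced genes were higher and none lower, with a median log2 ratio of 0.434 against 0.348 in activated nuclei. Immediate early genes there had 1 of 10 higher and none lower, with a median of 0.301 against 0.159. Over all genes there 5.06% were higher. Neither group was thus particular to activated nuclei. Resting fibroblast genes had 2 of 16 lower, Abca8b and Abca9, and none higher. Beside these, the lymphocyte gene Skap1 had 61.7 CPM in running infarct against 16.1 CPM in sedentary infarct. Only 1 of the 11 lymphocyte markers, Skap1, was measured in this comparison. Within running infarct, Skap1 was higher in activated than in other gated nuclei, at 61.7 against 28.7 CPM. The lymphocyte marker Bank1 went the other way there, at 15.7 against 62.99 CPM. The part of lymphocyte RNA in the interferon-induced values was not tested.

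In the libraries without infarct, the few activated nuclei kept some scar genes near infarct levels and had less of others. With 42 nuclei in running and 24 in sedentary, the levels of each library are given side by side. Col8a1, a short-chain collagen, was at 3934 CPM in running infarct, 4293 in sedentary infarct, 2923 in running and 3784 in sedentary. Col5a2 was at 1395 CPM in running infarct, 1417 in sedentary infarct, 1223 in running and 1149 in sedentary. Col1a1 was at 507 CPM in running infarct, 444 in sedentary infarct, 495 in running and 477 in sedentary. Each of these collagens stayed within 1.5-fold between libraries, and Col8a1 was lowest in running. The channel gene Kcnma1 was at 698 CPM in running infarct, 578 in sedentary infarct, 945 in running and 477 in sedentary. Cilp was at 192 CPM in running infarct, 243 in sedentary infarct, 375 in running and 309 in sedentary.

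Fn1, Runx1, Palld, Actn1 and Kif26b were lower without infarct. Fn1 was at 869 CPM (824 to 916) in running infarct, 793 (750 to 837) in sedentary infarct, 305 (237 to 386) in running and 106 (54.8 to 185) in sedentary. Kif26b was at 778 CPM in running infarct and 490 in sedentary infarct, against 13.2 CPM from 3 UMIs in running and 8.84 CPM from 1 UMI in sedentary. Runx1, a transcription factor of injured tissue, was at 456 CPM in running infarct, 473 in sedentary infarct, 141 in running and 53.1 in sedentary. The intervals of Fn1 and Kif26b in the infarct libraries lie wholly above those without infarct. Palld was at 437 CPM in running infarct, 508 in sedentary infarct, 102 in running and 79.6 in sedentary. Actn1 was at 414 CPM in running infarct, 368 in sedentary infarct, 124 in running and 97.2 in sedentary. Both cytoskeletal genes had the infarct libraries above the others. Eln, elastin, was at 1092 CPM in running infarct, 772 in sedentary infarct, 102 in running and 186 in sedentary. Cemip, a hyaluronan-degrading protein, was at 139 CPM in running infarct and 92.3 CPM in sedentary infarct, with 0 UMIs in running and in sedentary, which allows up to 16.3 CPM in running and 32.6 CPM in sedentary.

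Other genes were higher in the activated nuclei without infarct. Gsn was at 531 CPM (496 to 569) in running infarct, 535 (500 to 572) in sedentary infarct, 1956 (1778 to 2147) in running and 1671 (1441 to 1927) in sedentary. Pi16, a marker of adventitial progenitor fibroblasts chosen after its values were seen, was at 397 CPM in running infarct, 405 in sedentary infarct, 1104 in running and 1397 in sedentary. Tnxb was at 292 CPM in running infarct, 367 in sedentary infarct, 1060 in running and 796 in sedentary. All 3 genes were therefore lower in both infarct libraries than in both libraries without infarct. Sema3c was at 184 CPM in running infarct, 125 in sedentary infarct, 605 in running and 645 in sedentary. Scara5, a ferritin and scavenger receptor of fibroblasts, was at 51.0 CPM in running infarct, 57.6 in sedentary infarct, 318 in running and 203 in sedentary. Opcml, a cell adhesion molecule also chosen after its values were seen, was at 19.5 CPM in running infarct, 39.0 in sedentary infarct, 477 in running and 424 in sedentary.

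Immediate early genes, which respond to handling of tissue as well as to signals, summed to 579 CPM in activated nuclei of running infarct, 494 in sedentary infarct, 1417 in running and 1379 in sedentary. In other gated fibroblasts they summed to 575 CPM in running infarct, 476 in sedentary infarct, 844 in running and 685 in sedentary. Heat shock genes summed in activated nuclei to 739 CPM in running infarct, 731 in sedentary infarct, 1139 in running and 1689 in sedentary, and were higher without infarct in other gated fibroblasts too. The median mitochondrial share of activated nuclei was 2.84% in running infarct, 1.93% in sedentary infarct, 7.65% in running and 4.68% in sedentary. All of these were higher in the libraries without infarct, and their part in the differences by infarct was not tested.

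**Figure D5:**
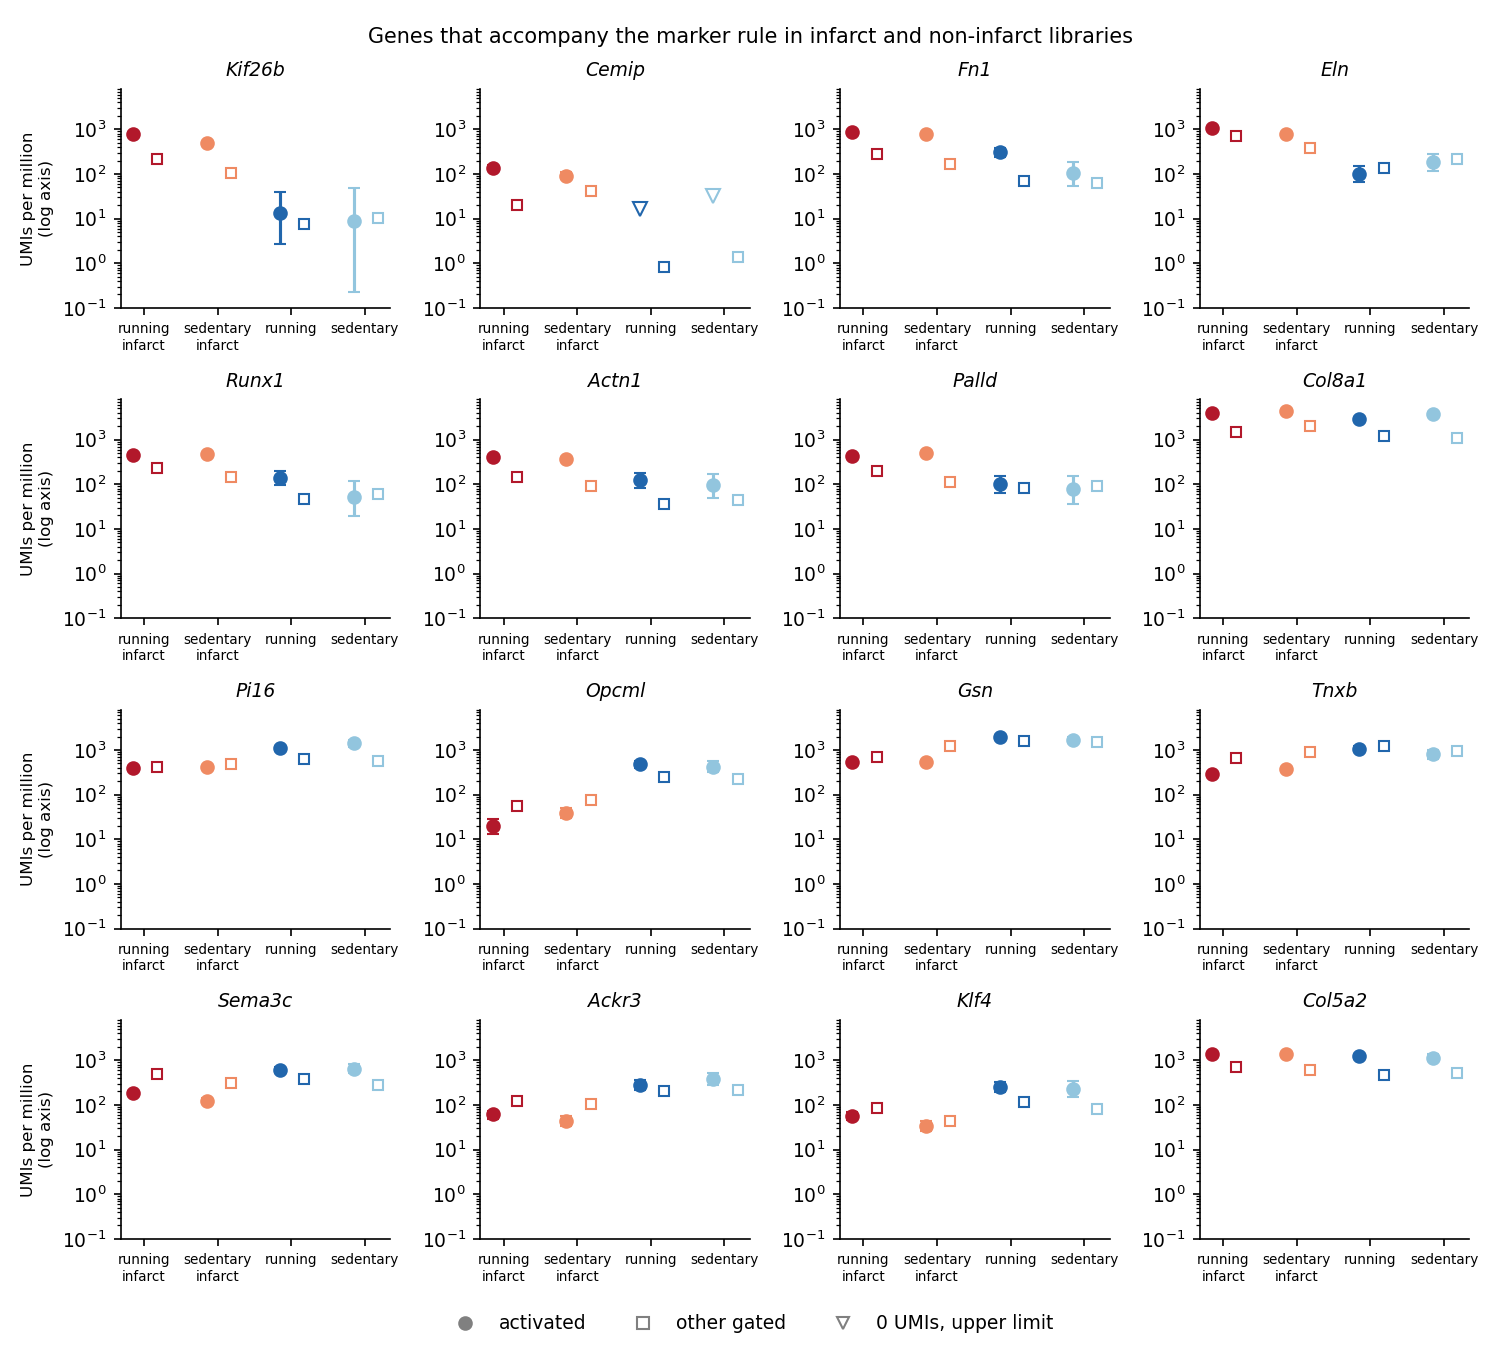
Level (CPM, log axis) of genes that accompany the 6 markers, in activated nuclei (filled, with exact 95% Poisson intervals) and other gated fibroblasts (open squares) of the running infarct, sedentary infarct, running and sedentary libraries; open triangles mark the upper limit for 0 UMIs. The activated values rest on 42 nuclei in running and 24 in sedentary. Activated nuclei have more Kif26b, Fn1 and Palld in the infarct libraries, and more Gsn, Pi16 and Sema3c in the libraries without infarct.

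Cell division was hardly seen by Mki67 and Top2a. At least 2 UMIs of Mki67 and Top2a, genes of dividing cells, were found in 1 activated nucleus of running infarct and in 0 of sedentary infarct, running and sedentary. Among other gated fibroblasts this was so in 10 nuclei in running infarct, 3 in sedentary infarct, 3 in running and 4 in sedentary. A count of 0 in 262 nuclei does not show that division is absent at this depth.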

How the data were processed

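Nuclei were profiled with 10x Genomics 3' v3.1 chemistry. The deposited matrices hold raw UMI counts per gene and barcode made by the authors, as the values show. Cell Ranger 7.1 and the GRCm39 build are given in the submitters' processing notes, and the called barcodes are those deposited, with 29916572 UMIs in running infarct, 26170995 in sedentary infarct, 37533722 in running and 32899707 in sedentary. No cell annotation was used, and classes were rebuilt by the rule given above. The members, the 37 gene lists and the comparisons were chosen with earlier results of these data known.

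UMI counts were summed per library over the nuclei of a class and divided by the non-mitochondrial total. Levels carry exact Poisson intervals, shares exact Clopper-Pearson intervals, ratios of levels exact conditional binomial intervals and ratios of shares log-scale intervals, all at 95%. UMIs of a nucleus share their source, and intervals cover counting error only. A gene was measured with at least 100 UMIs over both sums and counted higher or lower at 1.5-fold or more. Of the 24 genes named between infarct libraries, 12 on each side had the interval bound farthest from equality. Such genes needed one direction in nuclei with 2 or more Y-linked UMIs and in nuclei with none. They also needed no higher level outside the fibroblast gate. For activated against other gated nuclei, 15 on each side were taken by the smaller bound of the infarct libraries; some of the higher ones are not reported here. List members were named by most UMIs past 1.5-fold. Other named genes are said to be chosen after their values were seen, or are list members given for their level in every library.

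Doublets were not removed. Scrublet's automatic threshold called 0 nuclei, and the alternative without doublets leaves out the top scores, 0.8% per 1000 barcodes. Other alternatives changed the marker threshold, each marker, the mitochondrial and gene limits, the UMI minimum, the fold, the scaling, immune nuclei and the Y split. Ratios were checked on simulated counts. Python 3.11.15, numpy 2.4.6, scipy 1.17.1, pandas 2.3.3, scanpy 1.11.5 and matplotlib 3.10.9 were used. Promoter sequences are RefSeq's, and 47 of 59 named genes were in that table.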

Additional observations from a re-analysis of the deposited data

Results flagged for a closer look

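In activated nuclei, infarct over no infarct went opposite ways in the running and sedentary arms for Abca8a, Aldoa, Col6a1, Cry2 and Thbs4. The share of all genes that did so is not given, so these are examples and not a result about them. Both libraries without infarct held fewer than the 50 activated nuclei set as the minimum for such ratios. The log2 ratio of running infarct over running was -0.69 for Abca8a, -0.84 for Aldoa, -0.60 for Col6a1, -0.90 for Cry2 and -0.84 for Thbs4. The log2 ratio of sedentary infarct over sedentary was 0.71 for Abca8a, 0.76 for Aldoa, 0.83 for Col6a1, 1.28 for Cry2 and 1.17 for Thbs4. The difference between the arms was not tested. It rests on 42 nuclei in running and 24 in sedentary, where Abca8a had 81 UMIs in sedentary and the others between 3 and 9.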

How the results depend on the processing

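No paired analysis was possible because each group has 1 library. Doublet removal took out 192 nuclei in running infarct, 82 in sedentary infarct, 301 in running and 228 in sedentary, with 8 activated among them in running infarct, 3 in sedentary infarct and 0 in running and in sedentary. The ratio of shares among gated fibroblasts, running infarct over sedentary infarct, became 1.21 with 3 marker genes required, 1.21 after thinning to 2000 UMIs and 1.43 without nuclei carrying macrophage or lymphocyte markers. Running infarct over running became 16.5 with 10 marker UMIs, 23.2 with 3 marker genes, 17.6 without Postn in the rule, 4.16 with at most 5% mitochondrial UMIs and 15.8 after thinning. Sedentary infarct over sedentary became 47.6 with 3 marker genes and 30.9 without Postn. Running over sedentary became 0.939 with 10 marker UMIs and 3.87 with at most 5% mitochondrial UMIs. Genes higher and lower in running infarct against sedentary infarct numbered 874 and 805 with at least 20 UMIs, 17 and 12 with at least 500, 22 and 14 at 2-fold, and 99 and 81 without nuclei carrying immune markers, which takes out many activated nuclei through Rbpj and Mertk. In activated against other gated nuclei of running infarct the numbers were 1122 and 2090, 171 and 192, 155 and 384, and 234 and 345 under the same settings, and 322 and 349 in nuclei with Y-linked UMIs. In sedentary infarct they were 1036 and 1915, 167 and 184, and 160 and 292 for the UMI and fold settings, 224 and 273 in nuclei with Y-linked UMIs, and 478 lower without nuclei carrying immune markers. Without those nuclei the log2 ratio of running infarct over sedentary infarct turned to 0.33 for Col12a1 and -0.15 for Fn1, and in nuclei with no Y-linked UMI the median of the integrin list turned to -0.0078. The cause of these moves was not tested. Of single genes and list medians, 698 values under alternatives stayed within their spread and 60 moved. Chosen after seeing the data were the removal of nuclei carrying 8 defining immune genes, of the 10 deepest nuclei and of mesothelial-marker nuclei, the choice of nuclei by the other 5 markers between infarct libraries, and the list count without Comp. Alternatives for genes between infarct and no infarct were not run, since fewer than 50 activated nuclei were found without infarct.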

Other observations

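Activated nuclei of the infarct libraries were split by a marker, with the splits chosen after the values were seen. Each split marker is a gene of the rule, so a nucleus without it had to qualify through the remaining markers. Positive and negative nuclei therefore differed in part by construction, and they were not matched for depth. The ratios below are a description, and whether they mark distinct kinds of activated nuclei was not tested. The 81 Col11a1-positive activated nuclei of running infarct and the 64 of sedentary infarct were set against those without a Col11a1 UMI, 196 in running infarct and 198 in sedentary infarct. Fbn2 was 3.24-fold higher in the positive nuclei of running infarct and 2.67-fold in those of sedentary infarct. Thbs1 was higher by 2.32-fold in running infarct and 2.47-fold in sedentary infarct, and Kif26b by 2.01-fold in running infarct and 1.92-fold in sedentary infarct. Epha3, an ephrin receptor, was higher by 2.88-fold in running infarct and 3.08-fold in sedentary infarct, and Wt1, a transcription factor of the epicardium, by 3.54-fold in running infarct and 2.64-fold in sedentary infarct. Lower in them were Pi16, at a ratio of 0.295 in running infarct and 0.422 in sedentary infarct, Tnxb, at 0.313 in running infarct and 0.429 in sedentary infarct, and the complement gene C7, at 0.110 in running infarct and 0.498 in sedentary infarct. Positive nuclei had a median depth of 5664 UMIs against 5301 in the others of running infarct, and of 7667 against 5508 in sedentary infarct.

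Cthrc1-positive nuclei, 79 in running infarct and 77 in sedentary infarct, had more Adamts16, a matrix protease, than the other activated nuclei, by 7.15-fold in running infarct and 6.88-fold in sedentary infarct. Tnc was higher in them by 2.36-fold in running infarct and 4.18-fold in sedentary infarct, Cemip by 3.13-fold in running infarct and 2.79-fold in sedentary infarct, and Nrg1, a growth factor of the ErbB receptors, by 2.19-fold in running infarct and 3.07-fold in sedentary infarct. Comp-positive nuclei, 179 in running infarct and 132 in sedentary infarct, went with another set: Chrdl1, a BMP antagonist, was higher by 6.02-fold in running infarct and 3.65-fold in sedentary infarct, Sfrp2, a Wnt modulator, by 1.95-fold in running infarct and 3.68-fold in sedentary infarct, and Nox4 by 1.67-fold in each library. Muc16, a marker of mesothelium, and Efemp1 were higher in Comp-positive nuclei too, at 8.05-fold and 2.92-fold in running infarct and 11.1-fold and 3.17-fold in sedentary infarct, and Muc16 came from 10 activated nuclei of running infarct and 16 of sedentary infarct. Vcan was lower in Comp-positive nuclei, at a ratio of 0.487 in running infarct and 0.632 in sedentary infarct.

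Rspo2, a Wnt agonist chosen after its values were seen, had 0 UMIs in activated nuclei of running infarct, running and sedentary, and 78 UMIs in 5 nuclei of sedentary infarct.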
